A study of Mus musculus with 4 samples.

Results

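Disease-associated microglia genes are a set of transcripts that microglia, the resident macrophages of the central nervous system, switch on in mouse models of neurodegeneration. The state was described as partly dependent on the lipid-sensing receptor Trem2 and its adaptor Tyrobp. It combines lipid handling, lysosomal activity and phagocytosis with lower levels of genes that mark resting microglia. Microglia of the cord are long known to react to injury of a peripheral nerve. The 10 genes described here, Cst7, Itgax, Lpl, Apoe, Spp1, Gpnmb, Lgals3, Igf1, Cd9 and Ch25h, were taken by the gene name of their probes in the scanner files. They were read by 15 probes on 29 spots, of 55681 probes on 59305 spots in all. Every one of the 15 probes was well above background on all 4 arrays, so all 10 genes were among the 29114 genes and named transcripts tested.

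The arrays hold lumbar spinal cord of male ICR mice, an outbred strain, aged 8 weeks, with 1 array per mouse and 2 mice per group. In the spinal nerve ligation (SNL) group the L5 spinal nerve was tied tightly, and in the sham group the same nerve was exposed and left untied. Tissue was collected 10 days after surgery, after saline perfusion, and no genetic change or drug is named for either group. The protocol names cord segments L4 and L5 and the sample source L5 alone, and no source names the side of the cord. As the RNA is from cord tissue and not from sorted cells, more cells of a type and more RNA per cell cannot be told apart in any value below.

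Levels are log2 of the processed spot signal relative to the 75th percentile of the array, so 0 is the signal that 75% of spots stay under, and changes are SNL minus sham on this log2 scale with their SE. The share of spots well above background was 74.9% and 78.1% on the SNL arrays and 82.1% and 81.9% on the sham arrays, and no spot was saturated. Markers of astrocytes and oligodendrocytes, 10 of each, were detected in both groups, as were 15 of 15 markers of the myeloid core, the genes shared by microglia and other macrophages. Sham replicate 2 stood apart in genes of Schwann cells, which wrap peripheral axons, of meninges and of border macrophages. The summed signal of 8 tested markers of Schwann cells and sensory neurons, as multiples of the 75th percentile signal, was 11.7 and 7.01 in SNL mice, against 9.09 and 0.972 in sham mice. For 10 markers of fibroblasts and meninges it was 29.1 and 19.2 in SNL mice, against 27.4 and 14.7 in sham mice. By the median level of the Schwann and sensory list SNL replicate 2 was low too, at -4.09, beside -5.80 in sham replicate 2. The replicate 1 mice were at -1.89 (SNL) and -1.42 (sham). The border macrophage gene Lyve1 was at -2.41 and -2.12 in SNL mice, against -2.19 and -4.69 in sham mice. Mrc1, another, was at -2.33 and -2.05 in SNL mice, against -2.17 and -3.92 in sham mice. Results that rest on sham replicate 2 are therefore given without it as well.

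Of the 10 genes, 9 had a fitted change above 0 in limma, against 54.9% of all genes, and 0 passed at adjusted p under 0.05, where 0.161% of all genes were called higher and 0.0103% lower. Without adjustment, p was under 0.05 for 6 genes higher in SNL and 0 lower, beside 6.67% and 5.48% of all genes. A change of at least 2-fold at that p was met by 5 genes, Ch25h, Cst7, Itgax, Gpnmb and Lgals3, against 1.91% of all genes. Groups did not overlap for 9 genes, 8 higher and 1 lower, against 24.9% and 20.9% of all genes. The median change of the 10 genes was 0.94, beside 0.028 over all genes tested. With a variance trend and robust estimation in limma 3 of the 10 passed, Cst7, Itgax and Lgals3, with adjusted p of 0.0116, 0.0183 and 0.0242. That setting called 436 genes higher and 123 lower of 29114, more than the main fit. With no filter on dim probes only Cst7 passed (0.0447), where 1143 genes were called higher and 88 lower of 34496. Without sham replicate 2 the same 5 genes met the 2-fold rule, and without SNL replicate 2 it was met by 3, Cst7, Itgax and Lgals3. In the main fit the genes fell into a high tier of 3 with changes over 4-fold, a middle pair near 2-fold, and 5 below 2-fold. These tiers moved with 1 mouse left out. Ch25h was at 1.86 without sham replicate 2 and Itgax at 1.77 without SNL replicate 1, both under 4-fold. Without sham replicate 1 Igf1 was at 1.24, above 2-fold.

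**Figure D1:**
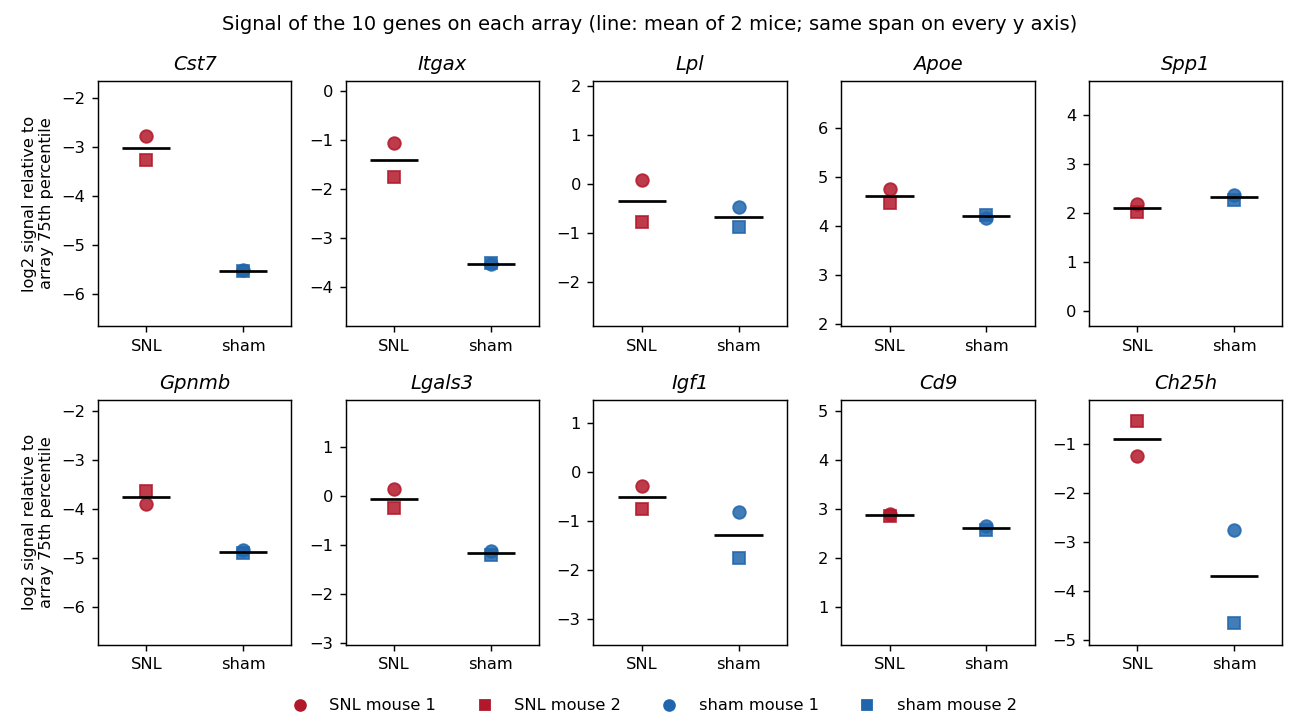
Log2 signal of each of the 10 genes relative to the 75th percentile of the array, for 2 SNL and 2 sham mice (points) with group means (lines). All y axes span the same log2 range, so that Cst7, Itgax and Ch25h separate the groups most, Lpl overlaps between groups, and Spp1 lies lower in both SNL mice.

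**Figure D2:**
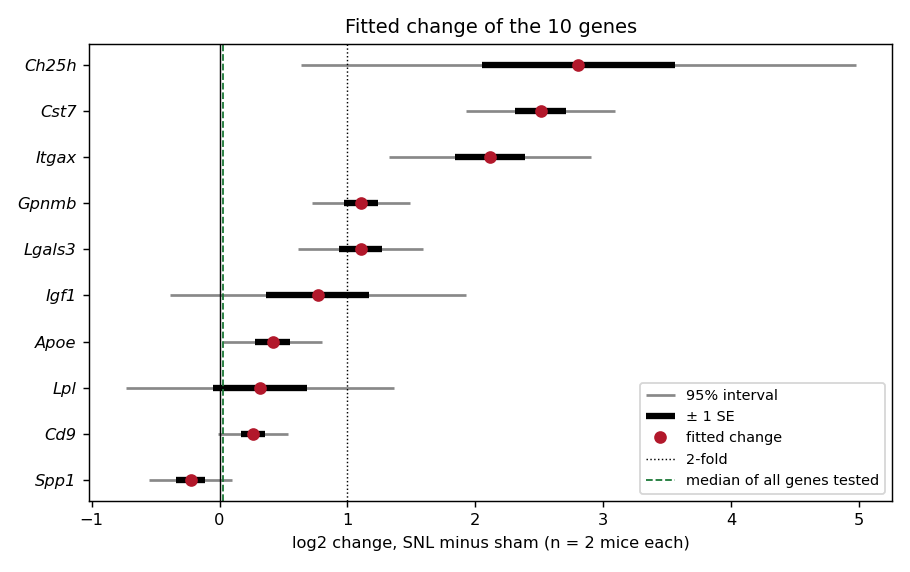
Fitted log2 change (SNL minus sham, n = 2 mice each) of the 10 genes with SE (thick bars) and 95% intervals (thin bars), and the median of all genes tested as a dashed line. The intervals of Lpl, Igf1, Cd9 and Spp1 include 0, and Ch25h has the widest interval, from 0.63 to 4.98.

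Cst7 encodes cystatin F, an inhibitor that acts on cathepsins inside lysosomes of immune cells. It had the smallest p of the 10 genes. Its level was -2.78 and -3.27 in SNL mice, against -5.53 and -5.54 in sham mice, or processed signals of 1725 and 1358 against 277 and 260.2. Both sham mice were near the lower end of the measured range and nearly equal, and both SNL mice were far above them. The change was 2.51 ± 0.20 (SE, limma, 2 mice a group, adjusted p = 0.0876), or 5.70-fold, with rank 129 by p among all genes. Over the 14 other settings it ran from 2.21 to 2.76. The probe lies on mm9 chromosome 2 at 150404490 to 150404549. Because Cst7 separated the groups most clearly relative to its error, the 250 bases before its start (RefSeq, GRCm38.p6, chr2:150570165-150570414, plus strand) are shown, and they held none of the motifs searched below, so no letter is in capitals.
Cst7: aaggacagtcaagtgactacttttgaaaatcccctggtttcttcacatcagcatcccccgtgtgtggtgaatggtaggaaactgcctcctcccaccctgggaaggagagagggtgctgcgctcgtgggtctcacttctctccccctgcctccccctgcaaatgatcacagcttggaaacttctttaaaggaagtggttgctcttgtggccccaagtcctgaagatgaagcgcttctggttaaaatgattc

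The proteases that cystatins restrain were measured beside it. Of 12 tested cathepsin and cystatin genes, all 12 had a change above 0, with a median of 0.31, and 5 were higher and 0 lower at an unadjusted p below 0.05, while 0 passed over all genes in limma. Ctsc, a target of cystatin F that activates granule proteases, was at 0.38 and 0.56 in SNL mice, against -0.16 and -0.54 in sham mice. Its change was 0.82 ± 0.18 (adjusted p = 0.261), a smaller value than that of Cst7. Ctss, the cathepsin that microglia release, was at 0.69 ± 0.11, Ctsh at 0.60 ± 0.13 and the secreted cystatin gene Cst3 at 0.47 ± 0.10. Ctsl was at 0.33 ± 0.090.

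Itgax encodes CD11c, the alpha chain of a beta-2 integrin and a marker of dendritic cells that microglia also take up in the disease-associated state. Its level was -1.06 and -1.76 in SNL mice, against -3.54 and -3.51 in sham mice, with no overlap. The change was 2.12 ± 0.27 (SE, limma, 2 mice a group, adjusted p = 0.152), or 4.34-fold, and it was 1.77 without SNL replicate 1 and 2.47 without SNL replicate 2. The probe lies on mm9 chromosome 7 at 135294052 to 135294111. In the 250 bases before its start (GRCm38.p6, chr7:128129300-128129549, plus strand), shown because Itgax is among the 3 genes with a change over 4-fold, capitals mark the AP-1 motif TGANTCA at -56 to -50.
Itgax: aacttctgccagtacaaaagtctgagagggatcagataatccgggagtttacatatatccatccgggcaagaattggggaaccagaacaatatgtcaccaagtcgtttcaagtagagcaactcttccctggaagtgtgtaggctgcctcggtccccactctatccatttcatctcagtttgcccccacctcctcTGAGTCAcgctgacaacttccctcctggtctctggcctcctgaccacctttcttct

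Itgb2, the beta chain that CD11c needs to reach the surface, was at 0.78 and 0.68 in SNL mice, against -0.46 and -0.26 in sham mice. Its change was 2.14-fold (limma, adjusted p = 0.126), smaller than that of Itgax. Within the list of 11 beta-2 integrin partners and ligands, 4 genes were higher and 0 lower at an unadjusted p below 0.05, all 4 by at least 2-fold, and 0 passed over all genes. Besides Itgb2 these were Fermt3, an integrin activator of blood cells, at 1.16 ± 0.088, the alpha chain Itgad at 1.75 ± 0.26 and the ligand Icam1 at 1.98 ± 0.46. The list's median change was 0.18. Dendritic cell markers other than Itgax had a median change of 0.15, which was 0.0075 without sham replicate 2. Their summed signal was 9.16 and 9.001 in SNL mice, against 8.94 and 8.93 in sham mice. Most of it was Siglech, which is also in the list of resting microglia. Without that gene the sum was 2.91 and 2.67 in SNL mice, against 3.18 and 2.58 in sham mice. Of these 10 markers, Batf3 was higher and Flt3 lower at an unadjusted p below 0.05, and on neither SNL array was Ccr7 well above background. The part of dendritic cells in the Itgax value was not tested.

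Cst7 is also made by natural killer cells and cytotoxic T cells. A lymphocyte list of 9 tested genes, which holds markers of these cells and also a B cell marker, summed to 0.524 and 0.519 in SNL mice, against 0.389 and 0.410 in sham mice. At an unadjusted p below 0.05, 3 were higher, Cd3e, Cd8a and Prf1, and 0 lower, and the list's median change was 0.49. Changes were above 0 for 6 of the 9. Those of Cd3d, Ncr1 and Ms4a1 were below 0, at -0.46 ± 0.42, -0.21 ± 0.28 and -0.11 ± 0.79. Signals were dim, with Cd3e at -4.60 and -4.49 in SNL mice, against -5.23 and -5.60 in sham mice. No tested marker was under background on both arrays of a group. The part of lymphocytes in the Cst7 value was not tested.

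Gpnmb, a membrane glycoprotein of lysosomes and melanosomes, and Lgals3, which encodes the glycan-binding galectin-3 of activated phagocytes, formed the middle pair. Gpnmb was at -3.89 and -3.63 in SNL mice, against -4.83 and -4.90 in sham mice, a change of 1.11 ± 0.13 (SE, limma, 2 mice a group, adjusted p = 0.141), or 2.15-fold. Lgals3 was at 0.13 and -0.25 in SNL mice, against -1.13 and -1.20 in sham mice, a 2.15-fold change (limma, adjusted p = 0.177, SE 0.17 on the log2 scale). For both genes the sham mice lay within 0.1 of each other and both SNL mice lay above them. The probe of Gpnmb lies on mm9 chromosome 6 at 49006386 to 49006445 and that of Lgals3 on chromosome 14 at 48005414 to 48005473. Without SNL replicate 1 Lgals3 was at 0.91, and Gpnmb was at 0.98 without SNL replicate 2 and 0.97 with normexp background correction and 0.98 with quantile normalization, each just under 2-fold.

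In a list of other galectins and a galectin binding protein gene, 8 tested, 4 were higher and 0 lower at an unadjusted p below 0.05, and 0 passed. Lgals9 was at 0.64 ± 0.094, Lgals1 at 0.52 ± 0.090, Lgals4 at 1.63 ± 0.53 and the galectin-3 binding protein gene Lgals3bp at 0.34 ± 0.098. Gpnmb is controlled by the MiT/TFE family of transcription factors, which also drive lysosomal genes. In a list of 12 such factors and lysosomal genes, 2 were higher and 1 lower at an unadjusted p below 0.05, with a median change of 0.076. Mitf was at 0.77 and 0.71 in SNL mice, against 0.90 and 0.73 in sham mice, and Tfeb at -0.13 and -0.21 against 0.095 and 0.17, a change of -0.30 ± 0.096. Pmel, the closest relative of Gpnmb and a melanosome gene, was at 0.45 ± 0.088 and Grn, the progranulin gene, at 0.46 ± 0.10, and neither passed.

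Cd9, a tetraspanin that organises surface proteins and is also made by oligodendrocytes, was at 2.91 and 2.87 in SNL mice, against 2.67 and 2.58 in sham mice. The groups did not overlap, but the change was 0.26 ± 0.095 (SE, limma, 2 mice a group, adjusted p = 0.427), and it was 0.037 with normexp correction and 0.13 with quantile normalization. The 10 oligodendrocyte markers summed to 89.2 and 80.4 in SNL mice, against 80.0 and 80.6 in sham mice. Among 17 other tetraspanin genes and partners, 3 were higher and 0 lower at an unadjusted p below 0.05, and the median change was 0.12. The leukocyte tetraspanins Cd53 and Cd37 were at 1.12 ± 0.10 and 0.54 ± 0.11, and Tspan4 was at 0.72 ± 0.10. Cd81, the partner most like Cd9 in structure, was at 0.24 ± 0.12.

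Spp1, the secreted matrix protein osteopontin, was the one gene with a change below 0. It was at 2.19 and 2.03 in SNL mice, against 2.38 and 2.28 in sham mice. Both SNL mice were below both sham mice, by a change of -0.22 ± 0.11 (SE, limma, 2 mice a group, adjusted p = 0.533), with a 95% interval from -0.55 to 0.10. The change was -0.097 with normexp correction and -0.14 without SNL replicate 2. Spp1 is also made by motor neurons of the mouse cord. Their 10 markers summed to 16.9 and 14.3 in SNL mice, against 27.4 and 24.0 in sham mice, with 8 lower and 0 higher at an unadjusted p below 0.05. Of these, Chodl and Mnx1 also passed over all genes, and on neither SNL array was Mnx1 well above background. The part of motor neurons in the Spp1 value was not tested. Of 10 osteopontin receptor genes, 3 were higher and 1 lower at an unadjusted p below 0.05, with a median of -0.0093. The integrin chains Itga5, Itgb1 and Itgb5 were at 0.47 ± 0.092, 0.47 ± 0.11 and 0.46 ± 0.13, and Itgb3 was at -0.61 ± 0.17. The receptor Cd44 was at 0.20 ± 0.14 and Itgav at 0.071 ± 0.088.

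Igf1, the insulin-like growth factor that microglia and other cells release, was read by 5 probes of 2 spots each. Its brightest probe was at -0.28 and -0.76 in SNL mice, against -0.82 and -1.76 in sham mice. The groups did not overlap, but SNL replicate 2 and sham replicate 1 differed by less than 0.1. The change was 0.77 ± 0.40 (SE, limma, 2 mice a group, adjusted p = 0.548), and it was 0.30 without sham replicate 2, 1.24 without sham replicate 1 and 0.35 as the mean of all probes. The probes gave different values along the gene on mm9 chromosome 10. The one at 87378456 to 87378515, assigned in the file to transcript variant 2, gave 0.0059 ± 0.23. Probes at 87393561 to 87393620 and 87393581 to 87393640, which share sequence, gave 0.71 ± 0.45 and 0.77 ± 0.40. Further along, those at 87395924 to 87395983 and 87399581 to 87399640 gave 0.11 ± 0.36 and 0.16 ± 0.28. The groups overlapped on 4 of the 5 probes and were apart only on the brightest one, which stands for the gene. On 3 of the 4 sham replicate 1 was above both SNL mice, and on the probe at 87393561 it lay between them. The differences among probes were not tested.

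**Figure D3:**
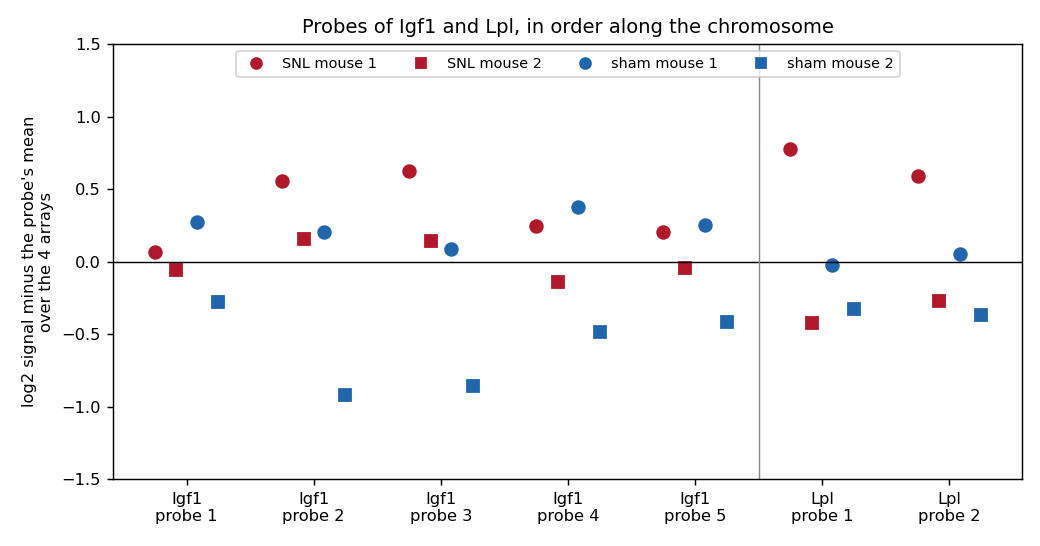
Log2 signal of each probe of Igf1 and Lpl, minus that probe's mean over the 4 arrays, in order along the chromosome. SNL replicate 1 is the highest point on Igf1 probes 2 and 3 and on both Lpl probes, sham replicate 1 is the highest on Igf1 probes 1, 4 and 5, and sham replicate 2 is the lowest on all Igf1 probes.

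Sham replicate 2, the mouse with low Schwann cell, meningeal and border macrophage signal, was also the lowest of the 4 on every Igf1 probe. The part of such cells in the Igf1 values was not tested. In a list of 17 tested genes of the insulin-like growth factor system, 2 were higher and 2 lower at an unadjusted p below 0.05, with a median of 0.082, and 0 passed. The receptor gene Igf1r was at 1.199 and 1.11 in SNL mice, against 1.18 and 1.12 in sham mice, a change of 0.0054 ± 0.096. Among binding proteins, Igfbp5 was at -0.35 ± 0.11, Igfbp2 at -0.39 ± 0.13 and Igfbp6 at 1.41 ± 0.36. Pappa2, a protease that cleaves binding proteins, was at 0.85 ± 0.10 (adjusted p = 0.141).

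The 3 lipid genes differed. Apoe, the apolipoprotein that carries lipids between astrocytes, microglia and neurons, was read on 10 spots per array. It was at 4.74 and 4.47 in SNL mice, against 4.17 and 4.21 in sham mice, with an SD between spots of 0.090 and 0.17 on the SNL arrays and 0.089 and 0.053 on the sham arrays. Both SNL mice lay above both sham mice. The change was 0.41 ± 0.13 (SE, limma, 2 mice a group, adjusted p = 0.388), or 1.33-fold, and 0.18 with quantile normalization. The 10 astrocyte markers, from the main source of Apoe in the cord, summed to 64.5 and 58.8 in SNL mice, against 58.0 and 59.1 in sham mice, and 0 of them were higher or lower at an unadjusted p below 0.05. Lpl, the lipoprotein lipase that releases fatty acids, was at 0.073 and -0.79 in SNL mice, against -0.46 and -0.88 in sham mice. Its groups overlapped, with a change of 0.32 ± 0.36 (adjusted p = 0.775), and its other probe gave 0.35 ± 0.46. The value was -0.11 without SNL replicate 1, so its sign rests on that mouse, and it was 0.75 without SNL replicate 2, 0.52 without sham replicate 1 and 0.11 without sham replicate 2.

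Among 24 genes of lipid uptake, transport and storage, 6 were higher and 1 lower at an unadjusted p below 0.05, 2 of the higher by at least 2-fold, and 0 passed, with a median change of 0.18. Apoc2, the apolipoprotein that activates Lpl and lies in the same gene cluster as Apoe, was at -1.22 and -1.03 in SNL mice, against -3.34 and -3.61 in sham mice. Its change of 2.35 ± 0.15 (limma, adjusted p = 0.0668) was the largest of the list relative to its error. Angptl4, which inhibits Lpl, was at 1.13 ± 0.18, the cholesterol exporter Abca1 at 0.996 ± 0.14 and the receptor Trem2 at 0.72 ± 0.091. The Apoe receptor Lrp1 was at 0.098 ± 0.11, and Gpihbp1, which anchors Lpl on capillaries, was at 0.71 ± 0.56.

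Ch25h makes 25-hydroxycholesterol, an oxysterol signal of activated macrophages. It had the largest change of the 10 genes and the largest error. Its level was -1.24 and -0.54 in SNL mice, against -2.75 and -4.65 in sham mice. The groups did not overlap, and the sham mice differed from each other by more than the nearest SNL and sham mice did. The change was 2.80 ± 0.75 (SE, limma, 2 mice a group, adjusted p = 0.328), or 6.99-fold, and it was 1.86 without sham replicate 2 and 3.75 without sham replicate 1. The low value was that of the mouse with low Schwann cell, meningeal and border macrophage signal. The part of such cells in the Ch25h value was not tested. The probe lies on mm9 chromosome 19 at 34548720 to 34548779. The 250 bases before the start of Ch25h (GRCm38.p6, chr19:34475149-34475398, minus strand) are shown as those of the gene with the largest change, and no motif searched matched there.
Ch25h: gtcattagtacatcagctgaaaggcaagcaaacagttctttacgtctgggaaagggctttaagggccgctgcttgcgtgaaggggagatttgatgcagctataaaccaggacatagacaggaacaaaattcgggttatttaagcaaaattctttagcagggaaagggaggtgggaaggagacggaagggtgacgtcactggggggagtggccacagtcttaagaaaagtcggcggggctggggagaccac

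Genes that act on the product of Ch25h showed no such values. Cyp7b1, which converts 25-hydroxycholesterol into a ligand that guides immune cells, was at 0.80 and 0.75 in SNL mice, against 0.79 and 0.77 in sham mice, a change of -0.0080 ± 0.089. Gpr183, the receptor of that ligand, was at -2.53 and -2.97 in SNL mice, against -2.64 and -3.39 in sham mice. Of 10 oxysterol and sterol-sensing genes, 0 were higher or lower at an unadjusted p below 0.05 in limma, and 0 passed with adjustment.

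Promoter windows of 250 bases before the start were available for 9 of the 10 genes, 12 windows in all, since Apoe and Spp1 had more than 1. Motifs were sought on both strands: the PU.1 core GAGGAAG, AP-1 TGANTCA, and TCATGTG and TCACGTG of the MiT/TFE family, none of which overlapped another in these windows. GAGGAAG was in the windows of Spp1 and Igf1 (2 windows), against 10.6% of 32851 windows in the table, and TGANTCA in those of Itgax and Igf1 (2 windows), against 6.75%. In Igf1 the PU.1 core lay at -60 to -54 and the AP-1 match at -37 to -31. TCATGTG and TCACGTG were in 0 of the 12 windows, against 3.25% and 3.13% in the table. These matches are letters in a window and were not tied to any measured binding.

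The wider set of disease-associated genes, 35 others all tested, was less shifted than the 10. Its median change was 0.21, with 27 above 0, 11 higher and 1 lower at an unadjusted p below 0.05, 2 higher by at least 2-fold, and 0 past the threshold over all genes. Tyrobp was at 2.63 and 2.31 in SNL mice, against 1.53 and 1.599 in sham mice, a change of 0.90 ± 0.15 (adjusted p = 0.192). Cd68, a lysosomal marker of phagocytes, was at 0.88 ± 0.12, and Cox6a2, a respiratory chain subunit better known from muscle, at 2.77 ± 0.50 with SNL values of 0.39 and -0.88. The lower gene, Dkk2, named after its value was seen, was at -0.48 ± 0.13. Genes of resting microglia did not lie lower as a group. Of these 16, 6 were higher and 1 lower at an unadjusted p below 0.05, with a median of 0.46, and 0 passed. Tmem119 was at 0.79 ± 0.11 and Cx3cr1, the fractalkine receptor, at 0.57 ± 0.12. The lower one was Sall1, named after its value was seen, at -0.30 ± 0.090.

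The myeloid core list gives a scale for the 10 genes. Of its 15 members, 14 were higher and 0 lower at an unadjusted p below 0.05, with a median change of 1.00. Of the 14, 6 were higher by at least 2-fold, against 1.91% of all genes. The list's median level was 1.57 and 1.58 in SNL mice, against 0.764 and 0.838 in sham mice. These medians differ by 0.78 between the groups, and this shift was taken from every gene by subtracting the median of the same array. The same subtraction put the median difference of all genes at -0.75, with 1.71% of all genes higher and 86.9% lower without overlap, so a gene with little change turns lower by construction. After it, Ch25h, Cst7 and Itgax stayed higher in SNL by 2.03, 1.74 and 1.34, and Gpnmb and Lgals3 by 0.33 each, with groups that did not overlap. Relative to the core, Igf1 was at -0.0062 and Lpl at -0.46 with overlapping groups, and Apoe, Cd9 and Spp1 were lower in both SNL mice. On this scale Igf1 was at -1.85 and -2.34 in SNL mice, below sham replicate 1 at -1.58. Only sham replicate 2, at -2.60, was lower than the SNL mice. The differences of Apoe and Cd9 were -0.36 and -0.51, and Spp1 relative to the core was at 0.62 and 0.44 in SNL mice, against 1.62 and 1.44 in sham mice. Cst7 relative to the core was at -4.35 and -4.85 in SNL mice, against -6.29 and -6.38 in sham mice. Lgals3 was at -1.44 and -1.84 in SNL mice, against -1.89 and -2.04 in sham mice, so its nearest SNL and sham values nearly met. These are descriptions of 2 mice per group with no test.

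**Figure D4:**
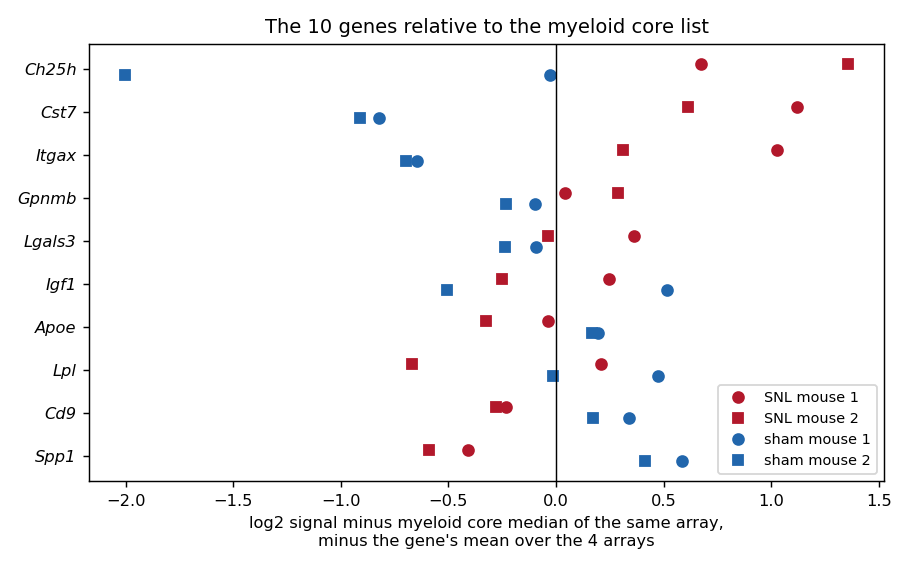
Log2 signal of each gene minus the myeloid core median of the same array, shown minus the gene's mean over the 4 arrays. SNL mice lie to the right of sham mice for Ch25h, Cst7, Itgax, Gpnmb and Lgals3 and to the left for Apoe, Cd9 and Spp1.

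Other cell types that could carry these transcripts were read from marker lists. The 14 tested markers of monocytes and border macrophages had a median change of 0.36, with 1 higher and 0 lower at an unadjusted p below 0.05. They summed to 36.1 and 32.5 in SNL mice, against 28.2 and 30.1 in sham mice. Most of this sum was Ms4a4c, at 4.64 and 4.47 in SNL mice, against 4.18 and 4.27 in sham mice. The sum therefore says little about the other markers of the list. Ly6c2, a defining monocyte marker, had no probe under that name and was not tested. The neutrophil list summed to 19.3 and 14.3 in SNL mice, against 18.8 and 23.6 in sham mice, with 0 higher and 0 lower at that p among 10 and a median of -0.69, which was -1.27 without SNL replicate 1 and -0.23 without SNL replicate 2. The 10 endothelial genes summed to 19.9 and 22.9 in SNL mice, against 21.7 and 19.6 in sham mice. Neither the 8 Schwann cell and sensory genes nor the 10 fibroblast and meningeal genes had a member past that p, with medians of 1.03 and 0.23. Without sham replicate 2 these medians were -0.10 and -0.40, and that of monocytes and border macrophages was -0.082. Without SNL replicate 1 the fibroblast and meningeal median was -0.18. Proliferation genes, 11 tested, were 1 higher and 4 lower at an unadjusted p below 0.05, with a median of -0.31. The part of these cell types in the values of the 10 genes was not tested.

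**Figure D5:**
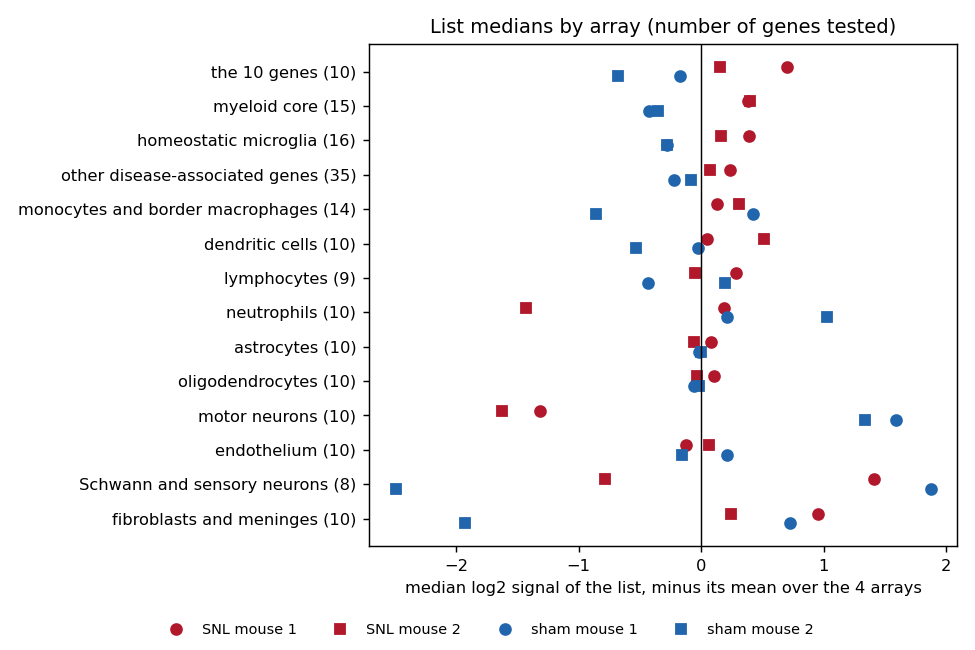
Median log2 signal of each list on each array, minus its mean over the 4 arrays, with the number of genes tested in brackets. SNL mice lie above both sham mice for the 10 genes, the myeloid core, resting microglia, dendritic cells and the other disease-associated genes. They lie below both sham mice for motor neurons and neutrophils. Sham replicate 2 is the lowest for the 10 genes, dendritic cells, endothelium, monocytes and border macrophages, Schwann cells and fibroblasts.

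The genes most like Cst7 and Itgax over the 4 arrays were found by the root mean square distance between log2 profiles, each minus its own mean, among 19167 named genes measured on all arrays. Nearest to Cst7 were Ccl5, at a distance of 0.026, then Tfcp2l1, Gm10334, Adam8 and Tubb6, at 0.094 to 0.13. The nearest to Itgax were Lag3, at 0.12, then Tnfsf11, Il6, Slc15a3 and Tmem52, at 0.15 to 0.18. With 4 points a profile is little more than the size of the group difference and the order of the mice.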

How the data were processed

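Lumbar cord RNA of 4 mice was labelled with Cy3 and hybridised to 1-colour Agilent arrays (design 028005, build mm9), per the labels' protocols and the file headers. Each deposited scanner file lists an intensity per spot, as processed by Agilent Feature Extraction (10.7.3.1 per the file headers, 10.7.1.1 per the submitters' processing notes). The deposited value table holds log2 values per probe, used as an alternative. Its columns correlated with the scanner values at r rounding to 1 and lay 0.122 to 0.132 above them in the median, so scale and direction are settled and the exact centring is unknown. The column medians were -3.49 and -3.34 for SNL and -3.46 and -3.53 for sham.

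Here the 75th percentile of each array, taken without control spots, was subtracted from log2 processed signal, outlier spots were left out, and spots of a probe were averaged. Probes with a value on all 4 arrays and well above background on at least 2 were kept. A gene was its brightest probe. Of 55681 probes, 26756 took a current symbol by accession, 3824 by symbol and 639 by synonym from a RefSeq table, and 24462 kept the file's name. SNL and sham were compared over all 29114 genes in limma 3.58.1 (R 4.3.3, lmFit, eBayes), with no covariate and Benjamini-Hochberg adjustment. The fit had 2 residual and 1.66 prior degrees of freedom. With 2 mice a group the smallest p of an exact permutation test is 0.333, and that test was left out. The fit was tested on simulated data. The arrays share 1 slide and 1 scan. The number of arrays limits the precision.

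The 10 genes and 23 further gene lists were chosen with earlier results of these data known. Named genes are all 10, fixed partners, and up to 4 genes with the smallest p per partner list among those with unadjusted p under 0.05 and groups that do not overlap. Markers named beside counts or sums of other cell types were chosen after their values were seen. These were Batf3, Flt3, Ccr7, Cd3e, Cd8a, Prf1, Cd3d, Ncr1, Ms4a1, Chodl, Mnx1, Ms4a4c, Lyve1 and Mrc1. Some genes that the rule names are not reported here. Alternatives were 10 processing settings and leaving out each mouse. Same-numbered mice are different animals, and their deviations correlated at -0.027 across genes, so the numbers do not pair them.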

Additional observations from a re-analysis of the deposited data

How the results depend on the processing

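Called genes over the whole array were 47 higher and 3 lower. They were 118 and 14 with normexp correction, 11 and 0 with quantile normalization, 27 higher with the 75th percentile over probes above background on all 4 arrays, 1143 and 88 with no filter on dim probes, 5 lower with probes above background on all 4 arrays, and 436 and 123 under robust estimation with a variance trend. With the replicate number as a block they were 0 and 0, and with 1 mouse left out 0 and 0 each time, where the lone mouse is assumed to vary like the other group. Of the 10 genes, 0 were called, against 1 with no filter, 3 with a variance trend, and 0 in the other settings, the replicate block included. The count at least 2-fold higher at unadjusted p under 0.05 was 5, and 3 to 6 with 1 mouse left out. The median change of the 10 genes stayed between 0.72 and 1.14 over all settings. The change of Lpl ran from -0.11 without SNL replicate 1 to 0.75 without SNL replicate 2. List medians of monocytes and border macrophages, Schwann and sensory genes, and fibroblasts and meninges turned to -0.082, -0.10 and -0.40 without sham replicate 2, were 0.83, 2.66 and 1.01 without sham replicate 1, and the last turned to -0.18 without SNL replicate 1. The cause was not tested. A slide or scan block was not possible with 1 slide and 1 scan.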
